A study of Homo sapiens with 9 samples.

Results

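The genes described here are the 13 protein genes of the mitochondrial genome and 42 nuclear genes for subunits of respiratory complexes I to IV. They were taken by symbol from the count tables, which held all 55 of them among 61155 symbols, and all 55 passed the filter on low counts that left 17759 genes. By complex, 21 of the nuclear genes belong to complex I, 4 to complex II, 7 to complex III and 10 to complex IV. RNA was sequenced from MDA-MB-231, an established human cell line of basal-like breast cancer. There were 3 libraries of FBXL12-KO clone #1 (KO1), 3 of FBXL12-KO clone #2 (KO2) and 3 of FBXL12-WT cells that carried a scrambled control guide RNA (WT). FBXL12 is the substrate-binding subunit of an SCF ubiquitin ligase, and in the series title FANCD2 is a protein that it degrades. Each clone grew from 1 cell, both clones are set against the same 3 WT libraries, and the labels leave unsaid whether a group's libraries are separate cultures. The p-values therefore speak for the spread among these libraries, which may be technical.

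Electrons enter the respiratory chain from NADH at complex I and from succinate at complex II. They pass through ubiquinone to complex III and by cytochrome c to complex IV, which reduces oxygen, while complexes I, III and IV pump protons for the ATP synthase. Core subunits of complexes I, III and IV and of the ATP synthase are encoded in mitochondrial DNA, which is transcribed as long RNAs that are cut at the tRNAs, whereas complex II and all other subunits come from nuclear genes, many with sites for NRF1, ETS-family factors or YY1 at their starts.

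Total counts ran from 52427841 to 97243363 per library, and levels are given as TMM-scaled CPM, counts relative to library size. FBXL12 itself was at 9.57, 9.95 and 9.40 CPM in KO1 and at 6.14, 6.36 and 5.33 CPM in KO2, against 22.2, 23.4 and 21.4 CPM in WT, with log2 changes of -1.21 (adjusted p = 2.65e-08) in KO1 and -1.91 (adjusted p = 7.29e-11) in KO2. The cell line's mesenchymal markers were high in all groups, with the intermediate filament gene VIM at 2761 ± 98.4 CPM in KO1 and 3331 ± 14.6 CPM in KO2, against 2811 ± 140.3 CPM in WT (SD, n = 3 each). Of 7 such markers 2 rose and 2 fell in KO1, where 18.0% of all tested genes rose and 16.8% fell, and 4 rose and 1 fell in KO2, where 24.7% rose and 24.7% fell. The 7 luminal or epithelial markers summed to 73.2 to 83.8 CPM in KO1 and 66.1 to 72.1 CPM in KO2, against 83.2 to 90.8 CPM in WT, with PGR at 0 in all libraries. All 4 of them that were tested fell in KO2, and 1 rose and 1 fell in KO1. The part of these markers in the results below was not tested. Leukocyte markers summed to at most 1.08 CPM in any library, fibroblast markers, with LUM at 0, to at most 5.82 CPM and endothelial markers to at most 22.4 CPM.

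The mitochondrial protein genes took a larger share of the reads in KO2 than in WT, and the nuclear subunit genes took a smaller share in KO1. The 13 mitochondrial genes held 3.00, 3.63 and 2.97% of all counts in KO1 and 4.95, 4.17 and 4.08% in KO2, against 3.30, 3.51 and 3.22% in WT. All KO2 libraries lay above all WT libraries, while the KO1 libraries lay on both sides of them, with KO1 replicate 2 highest in its group. The 42 nuclear genes held 0.328, 0.340 and 0.332% of counts in KO1 and 0.382, 0.378 and 0.363% in KO2, against 0.387, 0.379 and 0.367% in WT. Here all KO1 libraries lay below all WT libraries, and KO2 and WT overlapped. In bulk RNA, fewer cells of a type and less RNA per cell cannot be told apart.

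There were 9.15, 10.7 and 8.94 mitochondrial counts per count of the nuclear genes in KO1 and 12.97, 11.03 and 11.2 in KO2, against 8.53, 9.26 and 8.78 in WT. The mean ratio was 9.59 ± 0.951 in KO1 and 11.75 ± 1.06 in KO2, against 8.86 ± 0.374 in WT (SD, n = 3 each). On the log2 scale it was higher than in WT by 0.11 in KO1 and by 0.41 in KO2, values that carry no test because they sum over the chosen genes. The KO1 difference was 0.03 without KO1 replicate 2. Only KO2 was apart from WT in every library, and the KO1 and WT ranges overlapped.

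**Figure D1:**
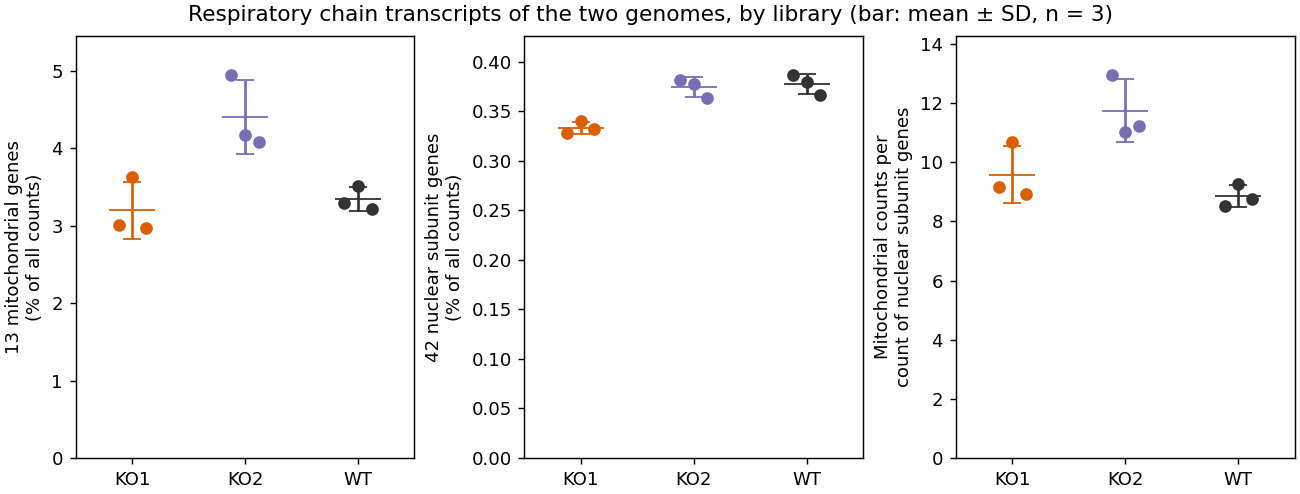
Share of all counts held by the 13 mitochondrial protein genes (left, percent), by the 42 nuclear subunit genes (middle, percent), and their ratio (right, counts per count), in KO1, KO2 and WT; points are libraries, bars the mean ± SD of 3. The 3 KO2 libraries, at 4.08 to 4.95%, lie above WT for the mitochondrial genes, and the 3 KO1 libraries, at 0.328 to 0.340%, lie below WT for the nuclear genes.

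Per length of exon nearly all mitochondrial genes were far more abundant than the nuclear subunit genes. The length is that of the merged exons of all isoforms in GENCODE 29, which for nuclear genes is longer than a single transcript by an amount that differs between genes, so their values on this scale are understated unevenly. In WT, CPM per kilobase was 6116 for MT-CO1, 5963 for MT-CO3 and 5460 for MT-CO2, the core subunits of complex IV. It was 3554 for MT-ATP6, 3550 for MT-ND4, 2514 for MT-ND4L, 1991 for MT-ND2, 1604 for MT-ND3, 1253 for MT-ND1, 1222 for MT-CYB, 1060 for MT-ND5, 751 for MT-ND6 and 144 for MT-ATP8. The highest nuclear value on this scale was 206 in KO1 (NDUFS5), 238 in KO2 (COX6B1) and 233 in WT (NDUFS5). All mitochondrial genes other than MT-ATP8 exceeded every nuclear gene in each group. In KO2 the order differed in places: MT-CO3, at 8589 CPM per kilobase, stood above MT-CO1, at 8323, and MT-CYB, at 1829, above MT-ND1, at 1225.

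MT-ATP8, the gene of a small membrane subunit of the ATP synthase, needs a caution about counting, and its sequence is shown because it shares bases with MT-ATP6. Of its 207 bases, 46, or 22.2%, lie in both genes, at chrM:8527-8572 of GRCh38. Capitals mark the shared bases in the GENCODE 29 transcript sequence, on the plus strand, chrM:8366-8572.
MT-ATP8: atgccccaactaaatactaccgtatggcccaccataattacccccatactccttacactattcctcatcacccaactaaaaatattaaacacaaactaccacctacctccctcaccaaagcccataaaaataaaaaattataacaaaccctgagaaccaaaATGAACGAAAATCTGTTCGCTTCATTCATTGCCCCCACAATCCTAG
Reads across the capitals belong to both genes, and the authors' handling of such reads is not given in the sources.

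In KO2, 7 of the 13 mitochondrial genes rose and none fell, where 49.4% of all tested genes were called, 24.7% up and 24.7% down. The median log2 change of the 13 was 0.44, against -0.008 over all genes tested. A gene was called changed when edgeR's quasi-likelihood test gave a Benjamini-Hochberg adjusted p under 0.05 over all tested genes, and log2 changes are given ± SE. In 8 of the 13 genes all KO2 libraries lay above all WT libraries, as they did for 29.5% of all tested genes, and in none below. The count of 7 was 4 without WT replicate 1 or without WT replicate 3.

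Complex III has 1 mitochondrial subunit, cytochrome b, and its gene MT-CYB had the highest called change in KO2 among the mitochondrial genes. MT-CYB had 1245, 1347 and 1152 CPM in KO1 and 2365, 1976 and 1918 CPM in KO2, against 1395, 1460 and 1329 CPM in WT. It rose in KO2, by 0.58 ± 0.08 (adjusted p = 0.000293), and its change in KO1 was -0.16 ± 0.08 (adjusted p = 0.173). All KO2 libraries lay above the other groups, which overlapped.

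Complex IV has 3 mitochondrial core subunits, and all of their genes rose in KO2. MT-CO1, the subunit that holds the site of oxygen reduction, had 8915, 10290 and 9085 CPM in KO1 and 14350, 12090 and 12060 CPM in KO2, against 9336, 9927 and 9032 CPM in WT, and it rose in KO2 by 0.44 ± 0.08 (adjusted p = 0.000747). MT-CO2, which takes up electrons from cytochrome c, had 3365, 4311 and 3349 CPM in KO1 and 6003, 5008 and 4848 CPM in KO2, against 3576, 4100 and 3528 CPM in WT, a rise of 0.50 ± 0.13 (adjusted p = 0.0154) in KO2. MT-CO3, a core subunit without redox centres, had 3820, 4762 and 3878 CPM in KO1 and 7610, 6426 and 6166 CPM in KO2, against 4514, 4948 and 4563 CPM in WT, a rise of 0.53 ± 0.11 (adjusted p = 0.00382) in KO2. For all 3 genes every KO2 library lay above WT, and the KO1 libraries overlapped with WT. The call for MT-CO2 was lost without WT replicate 1 (adjusted p = 0.0533) or WT replicate 3 (adjusted p = 0.0532).

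The mitochondrial complex I genes encode the membrane arm, which moves protons, and 3 of the 7 rose in KO2. MT-ND3 had 499.6, 597 and 526 CPM in KO1 and 904, 802 and 705 CPM in KO2, against 528, 607 and 530.1 CPM in WT, and it rose in KO2 by 0.53 ± 0.10 (adjusted p = 0.00308). MT-ND4L had 666, 879 and 669.7 CPM in KO1 and 1027, 898 and 950.3 CPM in KO2, against 714, 801 and 725 CPM in WT, a rise of 0.36 ± 0.11 (adjusted p = 0.0314) in KO2. MT-ND5, one of the antiporter-like subunits, had 1832, 2147 and 1787 CPM in KO1 and 2508, 2088 and 2196 CPM in KO2, against 1917, 2020 and 1825 CPM in WT, a rise of 0.24 ± 0.09 (adjusted p = 0.0419) in KO2. For these 3 genes every KO2 library lay above WT. The calls for the last 2 were lost after removal of each library's trend with GC content, where MT-ND4L was at 0.31 (adjusted p = 0.0558) and MT-ND5 at 0.20 (adjusted p = 0.122). Each was also lost when single libraries were left out, for MT-ND4L in 4 and for MT-ND5 in 6 of 9 cases.

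The other 4 complex I genes were not called in either clone. MT-ND1, at the foot of the membrane arm, had 1042, 1212 and 948 CPM in KO1 and 1344, 1104 and 1067 CPM in KO2, against 1190, 1260 and 1144 CPM in WT, with a change of -0.03 ± 0.11 (adjusted p = 0.839) in KO2. MT-ND2, an antiporter-like subunit, had 1646, 2190 and 1618 CPM in KO1 and 2631, 2158 and 2087 CPM in KO2, against 2008, 2209 and 2008 CPM in WT, with a change of 0.14 ± 0.14 (adjusted p = 0.447) in KO2. Both overlapped with WT in both clones. MT-ND4, also antiporter-like, had 4389, 5538 and 4219 CPM in KO1 and 6533, 5344 and 5152 CPM in KO2, against 4683, 5282 and 4713 CPM in WT, with a change of 0.21 ± 0.13 (adjusted p = 0.227) in KO2. MT-ND6, the only protein gene read from the other strand, had 387, 494 and 370.3 CPM in KO1 and 501, 399 and 418 CPM in KO2, against 389, 413 and 381 CPM in WT, with a change of 0.16 ± 0.13 (adjusted p = 0.353) in KO2. KO2 replicate 1 was the highest library for each of these genes, above the other KO2 libraries.

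The ATP synthase genes had the widest spread. MT-ATP6, the subunit through which protons pass, had 2050, 2826 and 1970 CPM in KO1 and 3825, 3138 and 3031 CPM in KO2, against 2330, 2601 and 2329 CPM in WT. All KO2 libraries lay above WT, and its change in KO2 was 0.46 ± 0.16 (adjusted p = 0.0517), which did not pass the threshold but did so under 6 of the 18 alternatives tried. MT-ATP8 had 25.2, 131 and 26.3 CPM in KO1 and 60.5, 51.1 and 29.6 CPM in KO2, against 29.8, 30.9 and 28.7 CPM in WT. KO1 replicate 2 stood alone at over 100 CPM, and its MT-ATP8 counts were 4.65% of its MT-ATP6 counts, against 0.978 to 1.63% in the other libraries. The MT-ATP8 changes were 1.03 ± 0.71 (adjusted p = 0.322) in KO1 and 0.66 ± 0.72 (adjusted p = 0.495) in KO2, and the first was -0.21 without KO1 replicate 2.

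**Figure D2:**
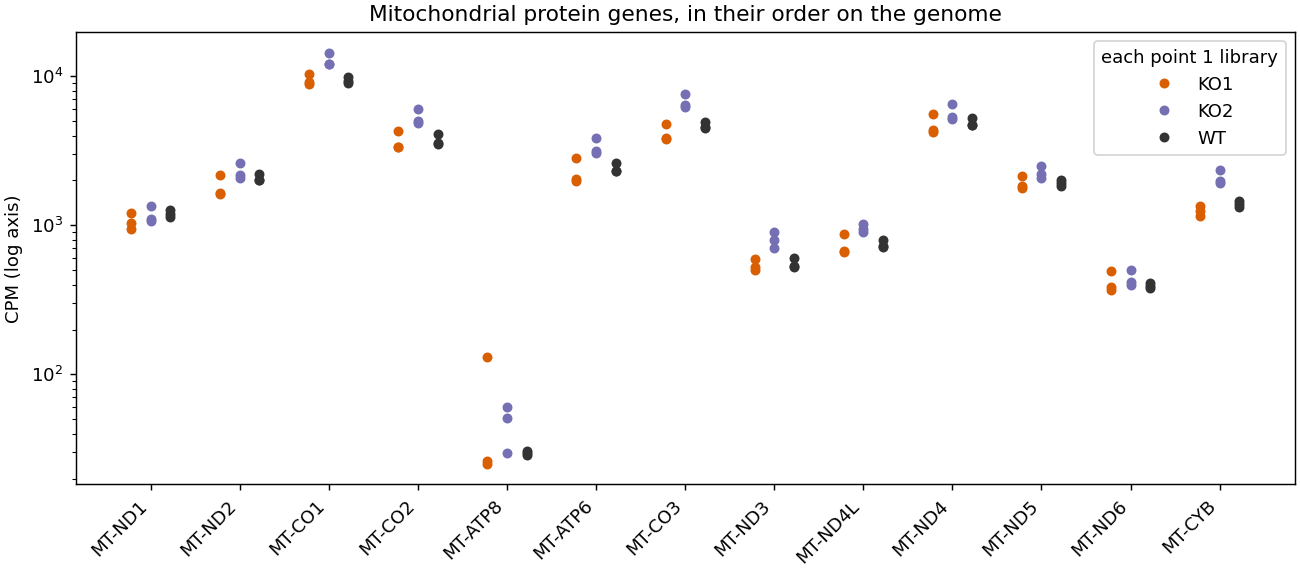
CPM of the 13 mitochondrial protein genes in their order on the genome (log axis), each point 1 library of KO1, KO2 or WT. All KO2 points lie above the WT points for 8 genes, among them MT-CO3 and MT-CYB, and 1 KO1 library stands apart at MT-ATP8 with 131 CPM.

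In KO1 none of the 13 mitochondrial genes was called in either direction by edgeR, where 34.8% of all tested genes were called, 18.0% up and 16.8% down. None of the 13 had an unadjusted p under 0.05, limma-voom and DESeq2 also called none, and in all 13 the KO1 and WT libraries overlapped. The median log2 change was -0.04, and 10 of the 13 values were below 0. One library decided this in part: without KO1 replicate 2, the median was -0.18 and edgeR called MT-ND2, at -0.34 (adjusted p = 0.0461), and MT-CO3, at -0.28 (adjusted p = 0.0469), as lower. Without KO2 replicate 1, MT-CYB was called lower in KO1, at -0.16 (adjusted p = 0.0434).

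Ratios within a library do not depend on how libraries are scaled, and they showed that the mitochondrial genes of KO2 did not move in step. MT-CYB counts were 120, 111 and 122% of MT-ND1 counts in KO1 and 176, 179 and 180% in KO2, against 117, 116 and 116% in WT. MT-CO3 counts were 367, 393 and 409% of MT-ND1 counts in KO1 and 566, 582 and 578% in KO2, against 379, 393 and 399% in WT. In both ratios KO2 lay well above the other groups, which overlapped. MT-ND6 counts were 21.2, 23 and 20.7% of MT-ND5 counts in KO1 and 20, 19.1 and 19% in KO2, against 20.3, 20.4 and 20.9% in WT. The KO2 libraries lay just below all others.

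**Figure D3:**
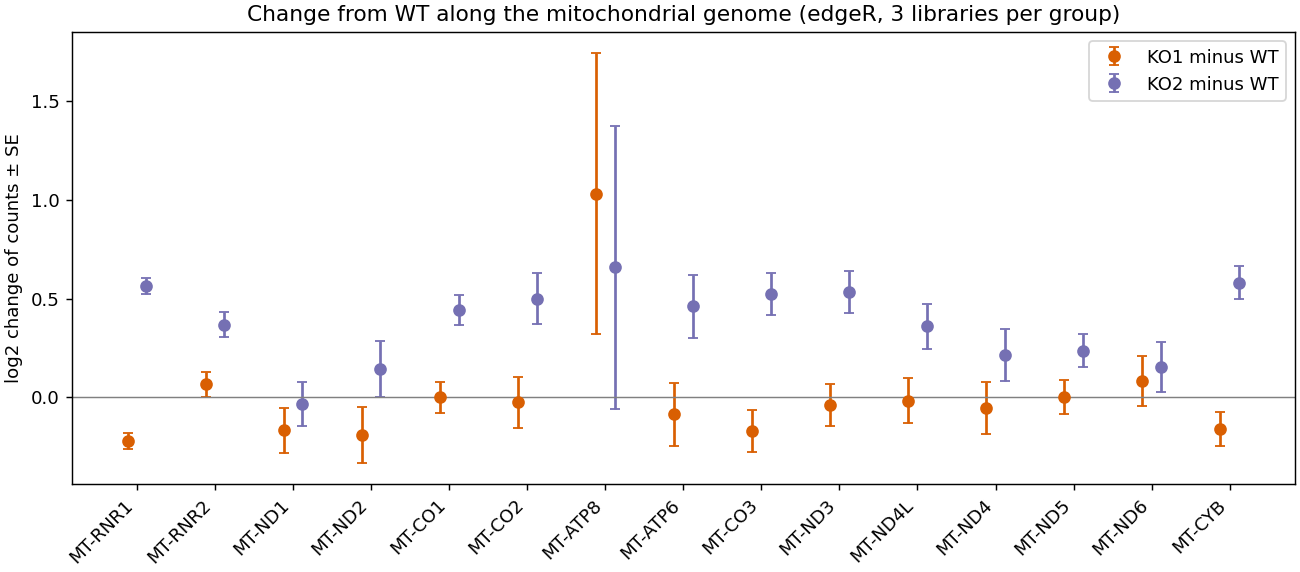
Log2 change from WT (vertical axis, ± SE, 3 libraries per group) of the 2 ribosomal RNAs and 13 protein genes in their order on the mitochondrial genome, for KO1 and KO2. KO2 is near 0 at MT-ND1 (-0.03) and highest among called protein genes at MT-CYB (0.58), and the bars at MT-ATP8 are the longest.

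The other transcripts of the mitochondrial genome also changed unequally. The ribosomal RNA gene MT-RNR1 averaged 396 ± 17.5 CPM in KO1 and 684 ± 17.5 CPM in KO2, against 462 ± 3.15 CPM in WT (SD, n = 3 each), and it fell in KO1, with a log2 change of -0.22 ± 0.04 (adjusted p = 0.000552), and rose in KO2, with 0.57 ± 0.04 (adjusted p = 1.96e-08). MT-RNR2, the gene of the larger ribosomal RNA, averaged 2710 ± 237 CPM in KO1 and 3338 ± 238 CPM in KO2, against 2587 ± 75.6 CPM in WT, with changes of 0.07 ± 0.06 (adjusted p = 0.448) in KO1 and 0.37 ± 0.06 (adjusted p = 0.000347) in KO2. MT-RNR1 counts were 14.7, 13.6 and 15.6% of MT-RNR2 counts in KO1 and 19.6, 21.5 and 20.4% in KO2, against 17.5, 17.6 and 18.5% in WT, with no overlap between groups. Over all tested genes, 18.0% rose and 16.8% fell in KO1, and 24.7% went each way in KO2. Of 22 tRNA genes, 18 were tested. In KO1 1 of them rose, MT-TN, at 0.33 ± 0.10 (adjusted p = 0.0218), and in KO2 2 fell, MT-TN at -0.39 ± 0.10 (adjusted p = 0.00684) and MT-TC, the gene of the cysteine tRNA, at -0.40 ± 0.08 (adjusted p = 0.000958). Both are read from the same strand as MT-ND6, and the MT-TN call in KO1 did not pass with the GC trend removed (adjusted p = 0.0733).

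Copies of mitochondrial genes in the nuclear genome can take reads from them or lend them reads, and how reads with several matches were counted is likewise not stated in these sources. MTATP6P1, a copy of MT-ATP6 on chromosome 1, averaged 249 ± 32.01 CPM in KO1 and 401 ± 72.2 CPM in KO2, against 299 ± 25.8 CPM in WT, and its counts were 10.1 to 12.6% of those of MT-ATP6 in all 9 libraries. Of 7 copies tested, 3 fell in KO1, where 16.8% of all tested genes fell. In KO2 1 copy rose and 1 fell, where 24.7% of all tested genes went each way. MTATP6P1 was called in neither clone, at -0.26 ± 0.15 (adjusted p = 0.227) in KO1 and 0.42 ± 0.15 (adjusted p = 0.0532) in KO2. MTND2P28, a copy of MT-ND2, was at -0.30 ± 0.09 (adjusted p = 0.02) in KO1 and 0.32 ± 0.09 (adjusted p = 0.0101) in KO2, both called. MTND1P23, a copy of MT-ND1, fell much further, to 0.891 ± 0.149 CPM in KO1 and 0.384 ± 0.0496 CPM in KO2, against 2.53 ± 0.103 CPM in WT. Its changes were -1.50 ± 0.16 (adjusted p = 4.39e-06) in KO1 and -2.71 ± 0.19 (adjusted p = 1.39e-08) in KO2, while MT-ND1 itself was called in neither. All named copies together held 0.0400 to 0.0556% of counts in KO1 and 0.0591 to 0.0797% in KO2, against 0.0470 to 0.0526% in WT.

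Among the nuclear subunit genes, nearly all calls in KO1 were falls, and KO2 had calls both ways. In KO1, 23 of the 42 fell and 1 rose, where 16.8% of all tested genes fell and 18.0% rose. Their median log2 change was -0.18, against -0.005 over all genes tested. In 26 of the 42 all KO1 libraries lay below all WT libraries, as they did for 22.7% of all tested genes, and in 1, SDHC, above, as they did for 23.8%. In KO2, 10 rose and 16 fell, where 24.7% of all tested genes rose and 24.7% fell, and the median was -0.04. All KO2 libraries lay above WT in 11 of the 42 and below it in 18, as they did for 29.5 and 29.3% of all tested genes. With each library's GC trend removed, 0 rose and 23 fell in KO1, where 3775 of all 17759 tested genes rose and 3164 fell. In KO2 13 rose and 16 fell under that setting, where 5290 of all tested genes rose and 4416 fell.

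By complex, the summed CPM of the nuclear genes of complex III was 939.7, 953.5 and 942.8 in KO1 and 1069, 1059 and 1034 in KO2, against 1138, 1148 and 1085 in WT, so both clones lay below WT. For complex IV it was 1003, 1085 and 1036 in KO1 and 1158, 1134 and 1065 in KO2, against 1176, 1183 and 1119 in WT. For complex I it was 980.6, 1029 and 977.4 in KO1 and 1240, 1210 and 1180 in KO2, against 1159, 1171 and 1110 in WT. Both sums lay below WT in every KO1 library, and in KO2 that of complex I lay above WT while that of complex IV overlapped with it. In KO2, NDUFS1 of complex I had 277, 266 and 281 CPM, against 187, 184 and 182.5 CPM in WT. Of the 21 complex I genes, 9 had positive and 12 negative changes in KO2, with a median of -0.03. The complex II sum, at 342, 373 and 356 in KO1 and 362, 358 and 335 in KO2, against 351, 349 and 349 in WT, overlapped in all groups. These sums carry no test, and the most abundant genes weigh most in them. In KO2, CYC1 of complex III had 186, 198 and 172 CPM, against 279, 309 and 267 CPM in WT. The median log2 change of the 7 complex III genes in KO2 was -0.08, or -0.01 with the GC trend removed, with 3 values positive and 4 negative before that removal.

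**Figure D4:**
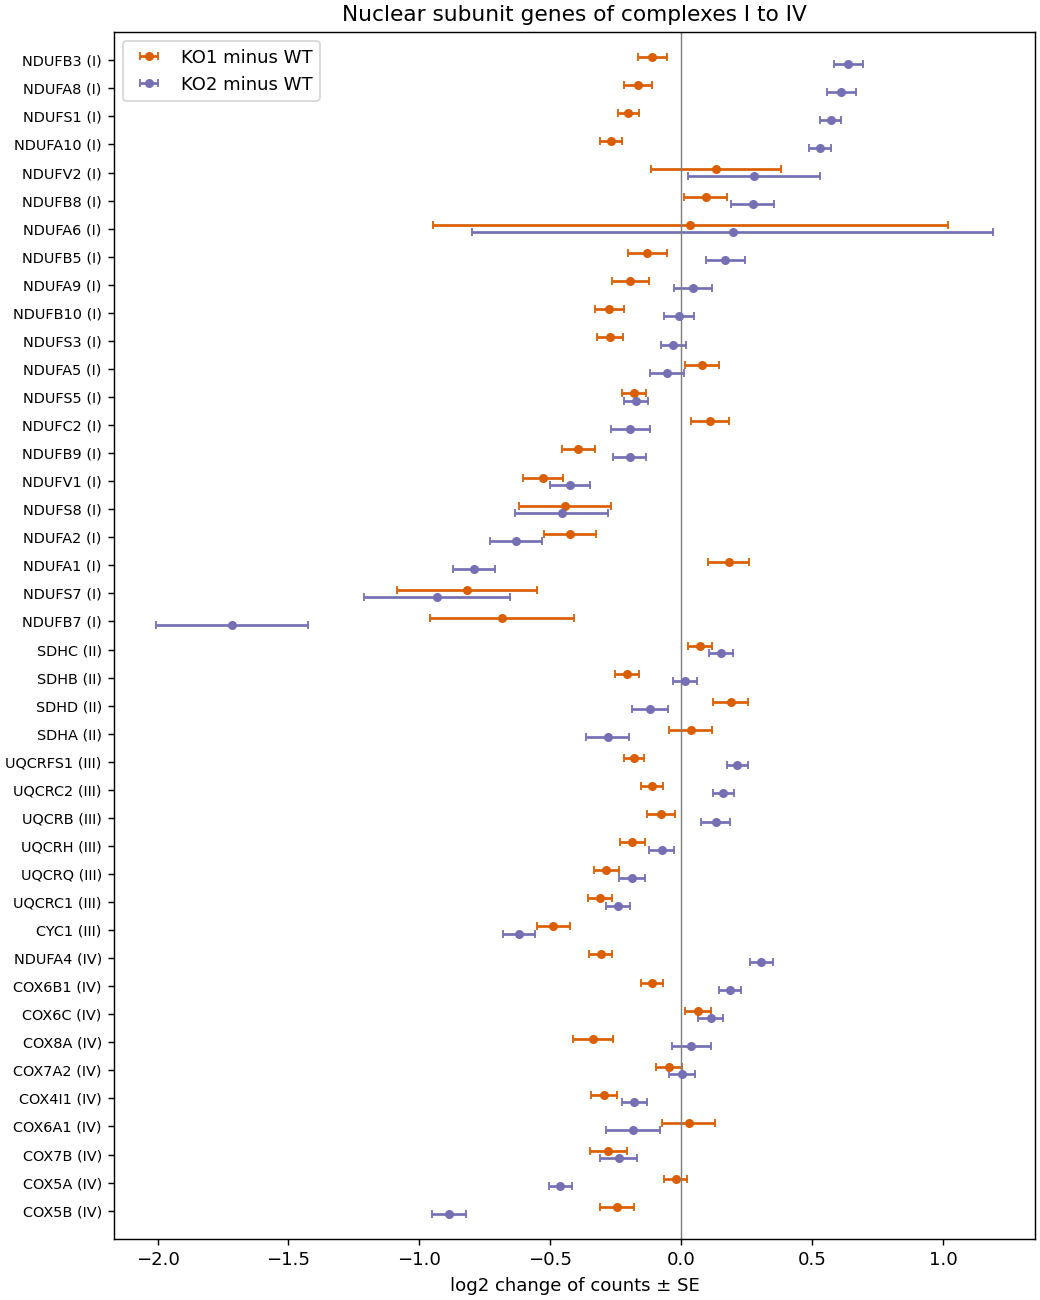
Log2 change from WT (horizontal axis, ± SE, 3 libraries per group) of the 42 nuclear subunit genes, by complex and, within it, by the change in KO2, for KO1 and KO2. Most KO1 points lie left of 0, with a median of -0.18, and KO2 points run from -1.72 (NDUFB7) to 0.64 (NDUFB3).

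Of the 21 nuclear complex I genes, 11 fell and 0 rose in KO1, and 8 fell and 5 rose in KO2. The shares of all tested genes were 16.8% down and 18.0% up in KO1, and 24.7% each way in KO2. NDUFV1, the core subunit that binds NADH, had 79.8, 67 and 69.1 CPM in KO1 and 76.5, 84 and 71.3 CPM in KO2, against 98.5, 112 and 100.5 CPM in WT. It fell in both clones, with a log2 change of -0.53 ± 0.08 (adjusted p = 0.000282) in KO1 and -0.42 ± 0.08 (adjusted p = 0.000737) in KO2, and neither overlapped with WT. With the GC trend removed these values were -0.33 (adjusted p = 1.41e-07) and -0.20 (adjusted p = 4.86e-05). NDUFA2, an accessory subunit of the matrix arm, had 14.6, 16 and 14.7 CPM in KO1 and 13.7, 14.9 and 10.7 CPM in KO2, against 20, 21.4 and 19.4 CPM in WT. It also fell in both, with a log2 change of -0.42 ± 0.10 (adjusted p = 0.00384) in KO1 and -0.63 ± 0.10 (adjusted p = 9.9e-05) in KO2, below WT in every library. NDUFB9, an accessory subunit of the membrane arm, had 39.4, 41.8 and 37.3 CPM in KO1 and 46.9, 45.7 and 43.2 CPM in KO2, against 54.8, 53.4 and 47.3 CPM in WT. It fell, with a log2 change of -0.39 ± 0.06 (adjusted p = 0.000198) in KO1 and -0.20 ± 0.06 (adjusted p = 0.0175) in KO2, where the call was lost without WT replicate 1 (adjusted p = 0.0992), WT replicate 2 (adjusted p = 0.0651) or KO2 replicate 3 (adjusted p = 0.0634).

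Accessory subunits of the membrane arm gave the widest falls in KO2 among complex I genes with a mean of at least 2 on the log2 CPM scale. NDUFB7, on the side of the intermembrane space, had 28.2, 17.2 and 23.9 CPM in KO1 and 12.3, 14.1 and 7.62 CPM in KO2, against 32.04, 44.8 and 34.6 CPM in WT. It fell in KO2, with a log2 change of -1.72 ± 0.29 (adjusted p = 0.00266), and its change in KO1 was -0.68 ± 0.28 (adjusted p = 0.105), not called although no KO1 library overlapped with WT. Its exons are 65% GC, and with the GC trend removed it was at -1.28 (adjusted p = 4e-04) in KO2 and -0.35 (adjusted p = 0.112) in KO1. NDUFA1, a small subunit needed for assembly, had 76.2, 96.6 and 81.2 CPM in KO1 and 44.1, 44.3 and 40.97 CPM in KO2, against 77.9, 76.5 and 69.4 CPM in WT. It fell in KO2, with a log2 change of -0.79 ± 0.08 (adjusted p = 4.54e-06), with no overlap, and was at 0.18 ± 0.08 (adjusted p = 0.0942) in KO1. Of the exon bases of NDUFA1, 44.5% lie across from exons of RNF113A on the other strand, so without known strand counting its reads are uncertain.

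Other complex I genes rose in KO2. NDUFB3, also an accessory subunit of the membrane arm, had 41.3, 48.1 and 43.8 CPM in KO1 and 74.3, 73.05 and 76.6 CPM in KO2, against 49.2, 46.8 and 47.8 CPM in WT. It rose in KO2 by 0.64 ± 0.06 (adjusted p = 1.75e-07) and was at -0.11 ± 0.06 (adjusted p = 0.137) in KO1. NDUFS1, the largest core subunit, which carries iron-sulfur clusters, rose in KO2, with a log2 change of 0.57 ± 0.04 (adjusted p = 1.94e-08) and fell in KO1, with -0.20 ± 0.04 (adjusted p = 0.00122). NDUFA8 rose by 0.61 (adjusted p = 1.98e-07) and NDUFA10 by 0.53 (adjusted p = 7.07e-08) in KO2, and both fell in KO1, with -0.17 and -0.27. In each of the last 3, all KO1 libraries lay below WT and all KO2 libraries above it.

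Some complex I genes were low or erratic, and their values bear little weight. NDUFA6 had 8.13, 6.63 and 3.65 CPM in KO1 and 13.03, 2.76 and 4.98 CPM in KO2, against 12.6, 0.658 and 4.16 CPM in WT, with a spread in WT wider than any difference between groups. NDUFS7, a core subunit with an iron-sulfur cluster, had 0.722 to 0.987 CPM in KO1 and 0.615 to 1.22 CPM in KO2, against 1.27 to 2.11 CPM in WT, and 49.1% of its exon bases lie across from genes on the other strand. NDUFV2, another core subunit, had 0.820 to 1.46 CPM in the clones and 0.636 to 1.12 CPM in WT.

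Complex II, which also acts in the citric acid cycle, is wholly nuclear, and its 4 genes were called in both directions. SDHA, the catalytic flavoprotein, had 21.1, 19.2 and 23.6 CPM in KO1 and 17.1, 17.97 and 16.4 CPM in KO2, against 19.1, 22.6 and 20.8 CPM in WT. It fell in KO2, with a log2 change of -0.28 ± 0.08 (adjusted p = 0.011), a call lost without WT replicate 2 (adjusted p = 0.0604), and was at 0.04 ± 0.08 (adjusted p = 0.761) in KO1. SDHB, the iron-sulfur subunit, had 90.9, 89.2 and 91.2 CPM in KO1 and 109, 107 and 99.9 CPM in KO2, against 101, 107 and 105 CPM in WT. It fell in KO1, with a log2 change of -0.21 ± 0.04 (adjusted p = 0.00221), with no overlap, and was at 0.01 ± 0.04 (adjusted p = 0.819) in KO2. SDHC, a membrane anchor, had 122, 129 and 124 CPM in KO1 and 138, 134 and 124 CPM in KO2, against 120.1, 118 and 119 CPM in WT. It rose in KO2 by 0.15 ± 0.04 (adjusted p = 0.0112), a call lost without KO2 replicate 1 (adjusted p = 0.0874) and at the threshold itself without KO2 replicate 2 (adjusted p = 0.05), and was at 0.07 ± 0.04 (adjusted p = 0.243) in KO1. SDHD, the other anchor, had 108, 135 and 116 CPM in KO1 and 97.8, 98.9 and 94.4 CPM in KO2, against 111, 101 and 104 CPM in WT. It was the 1 nuclear gene that rose in KO1, by 0.19 ± 0.07 (adjusted p = 0.0476), but 1 KO1 library overlapped with WT and the call was lost in 7 of 9 cases when a library was left out, with changes from 0.10 to 0.27, and with the GC trend removed (0.11, adjusted p = 0.0978). It was at -0.12 ± 0.07 (adjusted p = 0.175) in KO2, where all libraries lay below WT.

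Of the 7 nuclear complex III genes, 6 fell and 0 rose in KO1, and 3 fell and 2 rose in KO2. Among all tested genes, 16.8% fell and 18.0% rose in KO1, and 24.7% went each way in KO2. CYC1, cytochrome c1, which hands electrons to cytochrome c, had 213, 203 and 193 CPM in KO1 and 186, 198 and 172 CPM in KO2, against 279, 309 and 267 CPM in WT. It fell, with a log2 change of -0.49 ± 0.06 (adjusted p = 3.9e-05) in KO1 and -0.62 ± 0.06 (adjusted p = 1.73e-06) in KO2, with no overlap, but its exons are 64.5% GC, and with the GC trend removed it was at -0.15 (adjusted p = 0.284) and -0.20 (adjusted p = 0.138). UQCRC1, a core protein, had 83.2, 78.8 and 81.8 CPM in KO1 and 86.04, 86.6 and 83.1 CPM in KO2, against 98.8, 106 and 97.2 CPM in WT. It fell, with a log2 change of -0.31 ± 0.05 (adjusted p = 0.000103) in KO1 and -0.24 ± 0.05 (adjusted p = 0.00047) in KO2, which became -0.11 (adjusted p = 0.044) in KO1 and -0.01 (adjusted p = 0.829) in KO2 with the GC trend removed. UQCRQ, a small subunit next to cytochrome b, had 68.2, 64.8 and 67.5 CPM in KO1 and 71.2, 73.5 and 69.8 CPM in KO2, against 84.1, 83.5 and 76.8 CPM in WT. It fell, with a log2 change of -0.29 ± 0.05 (adjusted p = 0.000284) in KO1 and -0.19 ± 0.05 (adjusted p = 0.00413) in KO2, and no library of either clone overlapped with WT. UQCRFS1, the Rieske iron-sulfur protein, had 165, 168 and 166 CPM in KO1 and 227, 216 and 212 CPM in KO2, against 189, 189.9 and 186 CPM in WT. It fell in KO1, with a log2 change of -0.18 ± 0.04 (adjusted p = 0.00209) and rose in KO2, with 0.21 ± 0.04 (adjusted p = 0.000275), so the clones lay on opposite sides of WT.

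Of the 10 nuclear complex IV genes, 5 fell and 0 rose in KO1, and 4 fell and 2 rose in KO2. These counts stand beside 16.8% down and 18.0% up in KO1, and 24.7% each way in KO2, of all tested genes. COX4I1, the largest of the nuclear subunits, had 179, 187 and 169.8 CPM in KO1 and 198, 196 and 187 CPM in KO2, against 222, 228 and 207 CPM in WT. It fell, with a log2 change of -0.29 ± 0.05 (adjusted p = 0.000213) in KO1 and -0.18 ± 0.05 (adjusted p = 0.00565) in KO2, below WT in every library. COX5B, a zinc-binding subunit on the matrix side, had 44.5, 41.5 and 44.2 CPM in KO1 and 29.9, 27.9 and 25.8 CPM in KO2, against 49.6, 55.6 and 49.3 CPM in WT. It fell, with a log2 change of -0.25 ± 0.06 (adjusted p = 0.00736) in KO1, lost without WT replicate 2 (adjusted p = 0.0647), and -0.89 ± 0.07 (adjusted p = 2.89e-08) in KO2, where its level was far below the other groups. COX5A, also on the matrix side, had 117, 130 and 124 CPM in KO1 and 92.7, 90.3 and 90.2 CPM in KO2, against 124, 125 and 127 CPM in WT. It fell in KO2, with a log2 change of -0.46 ± 0.04 (adjusted p = 5.74e-07) and was at -0.02 ± 0.04 (adjusted p = 0.747) in KO1, overlapping with WT. COX8A, a small membrane subunit, had 69.6, 73.02 and 72.2 CPM in KO1 and 98.97, 99.9 and 80.02 CPM in KO2, against 86.2, 96.9 and 88.3 CPM in WT. It fell in KO1, with a log2 change of -0.34 ± 0.08 (adjusted p = 0.00462), which became -0.15 (adjusted p = 0.173) with the GC trend removed, and was at 0.04 ± 0.08 (adjusted p = 0.702) in KO2. NDUFA4, once counted to complex I and now to complex IV, had 89.98, 97.6 and 98.2 CPM in KO1 and 147, 145 and 146 CPM in KO2, against 120.4, 118 and 114 CPM in WT. It fell in KO1, with a log2 change of -0.31 ± 0.04 (adjusted p = 7.07e-05) and rose in KO2, with 0.31 ± 0.04 (adjusted p = 3.09e-05), on opposite sides of WT with no overlap.

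Between the genomes, the 3 mitochondrial core genes of complex IV were at 0.44 to 0.53 in KO2, while its 10 nuclear genes gave 5 positive and 5 negative values, from -0.89 (COX5B) to 0.31 (NDUFA4), with a median of -0.09. Within a library, COX5B counts were 24.9, 22.1 and 26% of COX4I1 counts in KO1 and 15.1, 14.3 and 13.7% in KO2, against 22.3, 24.3 and 23.8% in WT. The KO2 libraries lay below all others. For complex III, MT-CYB was at 0.58 in KO2, and its 7 nuclear genes gave 3 positive and 4 negative values, from -0.62 (CYC1) to 0.21 (UQCRFS1), with a median of -0.08. In KO1 MT-CYB was at -0.16, and all 7 nuclear values were below 0, with a median of -0.19.

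Promoters are shown for 5 nuclear genes named above, because they hold one of 3 exact words that stand for factors of respiratory genes. RefSeq promoters (GRCh38.p14, 250 bases before to 50 after the start) matched 33 of the 42 nuclear genes. The words searched on both strands were the NRF1 palindrome, which stands in capitals in NDUFA8, CCGGAAGT for ETS-family factors and AAGATGGCG for YY1, and they do not overlap in the sequences shown. NDUFA8 is at chr9:122159730-122160029, minus strand; SDHD at chr11:112086623-112086922, plus strand; UQCRQ at chr5:132866392-132866691, plus strand; COX5B at chr2:97645812-97646111, plus strand; and SDHB at chr1:17053983-17054282, minus strand. Capitals mark the words on either strand, all in the orientation of the gene.
NDUFA8: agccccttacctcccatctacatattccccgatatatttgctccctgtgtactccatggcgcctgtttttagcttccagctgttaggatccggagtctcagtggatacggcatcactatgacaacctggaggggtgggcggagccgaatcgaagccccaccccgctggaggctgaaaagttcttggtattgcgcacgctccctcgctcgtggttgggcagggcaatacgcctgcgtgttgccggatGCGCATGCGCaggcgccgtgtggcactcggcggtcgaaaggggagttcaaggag
SDHD: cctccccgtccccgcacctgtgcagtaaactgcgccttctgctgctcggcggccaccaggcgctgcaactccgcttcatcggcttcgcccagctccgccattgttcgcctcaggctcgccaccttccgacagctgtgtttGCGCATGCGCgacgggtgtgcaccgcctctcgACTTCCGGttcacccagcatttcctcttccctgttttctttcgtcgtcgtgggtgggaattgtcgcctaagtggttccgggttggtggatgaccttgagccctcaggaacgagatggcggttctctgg
UQCRQ: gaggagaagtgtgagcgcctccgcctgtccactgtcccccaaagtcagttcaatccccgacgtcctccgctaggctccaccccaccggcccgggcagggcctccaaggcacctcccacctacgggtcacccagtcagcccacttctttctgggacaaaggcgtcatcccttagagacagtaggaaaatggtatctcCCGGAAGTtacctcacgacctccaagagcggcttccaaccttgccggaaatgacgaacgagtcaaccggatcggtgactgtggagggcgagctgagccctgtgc
COX5B: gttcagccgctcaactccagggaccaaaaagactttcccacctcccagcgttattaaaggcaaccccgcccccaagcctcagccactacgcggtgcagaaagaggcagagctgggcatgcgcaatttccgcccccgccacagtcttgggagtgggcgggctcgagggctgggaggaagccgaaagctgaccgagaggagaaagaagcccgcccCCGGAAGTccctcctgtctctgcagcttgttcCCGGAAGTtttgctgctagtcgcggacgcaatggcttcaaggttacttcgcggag
SDHB: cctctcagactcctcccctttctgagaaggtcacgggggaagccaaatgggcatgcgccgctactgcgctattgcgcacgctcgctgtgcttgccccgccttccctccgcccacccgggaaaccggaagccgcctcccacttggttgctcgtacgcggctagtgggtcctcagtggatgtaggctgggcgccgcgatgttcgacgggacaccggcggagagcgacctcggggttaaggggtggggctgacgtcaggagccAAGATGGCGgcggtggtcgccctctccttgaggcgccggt
The NRF1 word was found in 2 of the 33 promoters, NDUFA8 and SDHD, or 6.06%, against 1.24% of all 35116 promoters. The ETS word was in 6 of them, or 18.2%, against 4.14%, and the YY1 word in 5, or 15.2%, against 1.75%. Any of the words was in 12, or 36.4%, against 6.74%. Genes with the NRF1 or ETS word were called in both directions. NDUFA8 fell in KO1 and rose in KO2, and SDHD was at 0.19 and -0.12. Of the 6 genes with the ETS word 5 fell and 1, SDHD, rose in KO1, and 2 fell and 1 rose in KO2. Of the 27 without it 14 fell and 0 rose in KO1, and 10 fell and 7 rose in KO2. The 5 genes with the YY1 word were called only down, 4 in KO1 and 2 in KO2. Those 2 were NDUFS7, at 0.615 to 1.22 CPM in KO2, and UQCRC1, at -0.01 (adjusted p = 0.829) in KO2 with the GC trend removed. Among the 28 without the YY1 word 15 fell and 1 rose in KO1, and 10 fell and 8 rose in KO2. Of all tested genes, 16.8% fell and 18.0% rose in KO1, and 24.7% went each way in KO2. A match is a description of letters in this window and not a site, and the part of these words in the changes was not tested.

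Nuclear subunit genes lie scattered over the chromosomes, and in KO2 their changes went with those of the genes around them. For each of the 42 the median log2 change of the 20 nearest tested protein-coding genes was taken. In KO2, 19 of the 26 called genes had the sign of their neighbours' median, and for 13 of them that median was over 0.3 in size. Across the 42 genes, which share the same libraries and are thus not independent, a gene and its neighbours gave a Pearson's r of 0.79 and a Spearman's rho of 0.67 in KO2, and 0.58 and 0.53 in KO1. In KO1, 12 of 24 called genes had the sign of their neighbours and for 1 of them the median was over 0.3. With the GC trend removed, Pearson's r was 0.75 in KO2 and 0.44 in KO1, and Spearman's rho was 0.62 and 0.37. No such correlation is given for genes outside the 42.

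NDUFB7, at chr19:14566078-14572062 of GRCh38 (gene positions are those of GENCODE 29), was at -1.72 in KO2 and its neighbours at -0.85. With the GC trend removed these values were -1.28 and -0.58. In KO1 the neighbours of NDUFB7 were at -0.09. FBXL12, the gene knocked out, is on the same chromosome, at chr19:9810267-9827816, and its own neighbours had medians of -0.38 in KO1 and -0.53 in KO2. COX5B, at chr2:97646040-97648383, was at -0.89 with neighbours at -0.72, NDUFA1, at chrX:119871487-119876662, was at -0.79 with -0.68, CYC1 was at -0.62 with -0.76, and COX5A, at chr15:74919791-74938168, was at -0.46 with -0.55. Genes that rose in KO2 with positive medians of their neighbours included NDUFB3 at 0.64 beside 0.52 and NDUFA8 at 0.61 beside 0.51. NDUFS1 was at 0.57 beside 0.39 and NDUFA10 at 0.53 beside 0.44. NDUFB3, NDUFS1 and NDUFA10 share a chromosome, at chr2:201071433-201085750, chr2:206114817-206159603 and chr2:239892450-240025402, so they may not be separate cases. COX5B, which fell, is on the same chromosome. NDUFA2, at -0.63 with neighbours at 0.16, and COX6B1, a subunit on the side of the intermembrane space, at 0.19 (0.29 with the GC trend removed) with neighbours at -0.31, went against theirs. The median of gene minus neighbours was 0 in KO2, with 21 of 42 below, and -0.19 in KO1, with 33 of 42 below, or -0.18 and 38 of 42 after removal of the GC trend. The part of the neighbourhood in these changes was not tested.

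**Figure D5:**
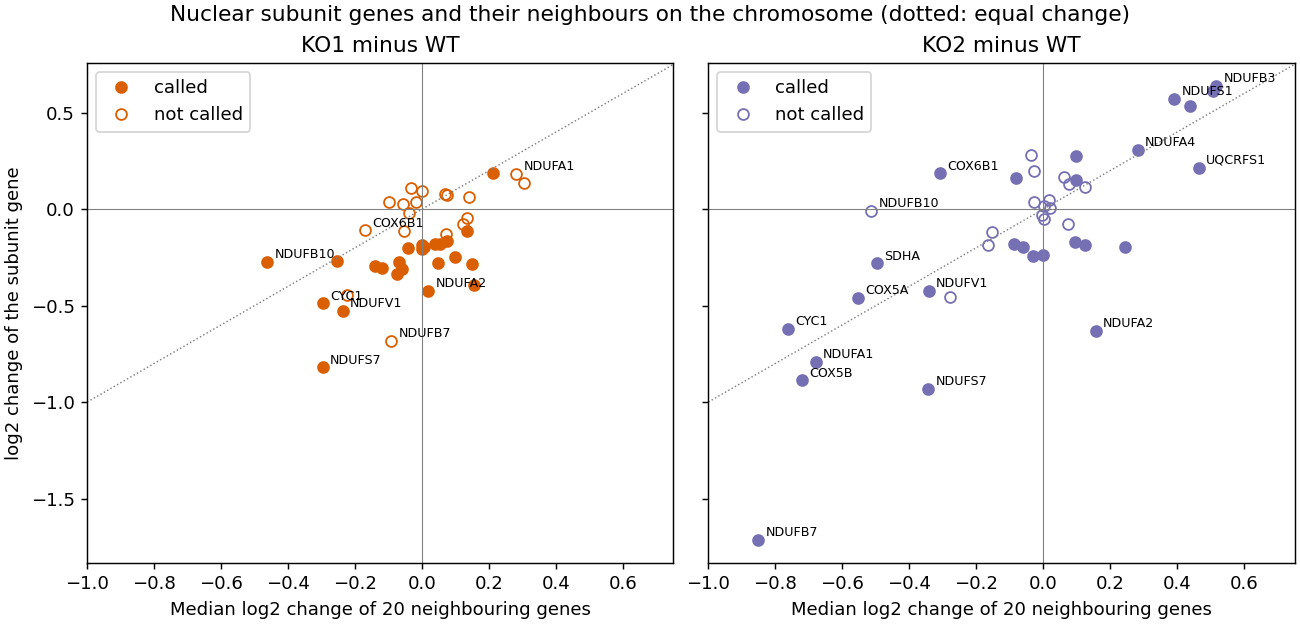
Log2 change from WT of each of the 42 nuclear subunit genes (vertical axis) against the median log2 change of its 20 nearest tested protein-coding genes (horizontal axis), in KO1 (left) and KO2 (right); filled points were called and the dotted line marks equal change. In KO2 the points lie around the line from NDUFB7 to NDUFB3, and in KO1 most lie below it, with a median distance of -0.19.

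The direct comparison of KO1 with KO2 asks whether the clones' changes were unequal. Of the mitochondrial genes, 8 were lower in KO1 than in KO2 and none higher, where 48.9% of all tested genes were called, 24.9% lower and 23.9% higher, and the median log2 difference was -0.38. These were the 7 genes that rose in KO2 and MT-ATP6, which was at -0.55 ± 0.16 (adjusted p = 0.0285). The calls for MT-ATP6 and MT-ND5 were each lost in 7 of 9 cases when a library was left out, that for MT-ND4L in 4 and that for MT-CO2 in 1, and MT-ND5 was also lost with the GC trend removed (adjusted p = 0.0671). The largest was that of MT-CYB, at -0.74 ± 0.08 (adjusted p = 4.79e-05), followed by MT-CO3, at -0.70 ± 0.11 (adjusted p = 0.000771). In 7 of the 13 all KO1 libraries lay below all KO2 libraries, as they did for 28.4% of all tested genes. The count of 8 was 4 without KO1 replicate 1, 5 without KO1 replicate 3 and 5 without KO2 replicate 1, and it was 10 at the most.

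Of the 42 nuclear genes, 16 were lower in KO1 than in KO2 and 7 higher, where 24.9% of all tested genes were lower and 23.9% higher. The libraries did not overlap in 17 of the 42 with KO1 below and in 7 with KO1 above, beside 28.4 and 26.7% of all tested genes. NDUFA10 had the lowest difference, -0.80 ± 0.04 (adjusted p = 5.39e-10), with the KO1 libraries at 65.6 to 70.4 CPM and the KO2 libraries at 117 to 122 CPM. NDUFA8 was at -0.78, NDUFS1 at -0.78 and NDUFB3 at -0.75. At the other end NDUFB7 was at 1.03 ± 0.29 (adjusted p = 0.0237) and NDUFA1 at 0.97 ± 0.08 (adjusted p = 5.28e-07). The NDUFB7 call was lost without KO1 replicate 1 (adjusted p = 0.07), KO1 replicate 3 (adjusted p = 0.0601) or KO2 replicate 1 (adjusted p = 0.0513). Across the 42 genes, Pearson's r with the neighbours was 0.86 in this comparison and Spearman's rho 0.6.

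Other genes of the pathway were read from lists, whose counts stand beside 18.0% up and 16.8% down in KO1, and 24.7% up and 24.7% down in KO2, of all tested genes. Of 16 further complex I subunit genes tested, 0 rose and 5 fell in KO1, and 2 rose and 5 fell in KO2. The accessory subunit gene NDUFB1 fell in KO1, with a log2 change of -0.26 ± 0.07 (adjusted p = 0.00692), and rose in KO2, with 0.22 ± 0.07 (adjusted p = 0.0107). NDUFA11, an accessory subunit of the membrane arm, fell in both, with -0.82 ± 0.15 (adjusted p = 0.000611) in KO1 and -0.79 ± 0.15 (adjusted p = 0.000538) in KO2, or -0.54 and -0.44 with the GC trend removed. NDUFB6 fell in both, with a log2 change of -0.26 ± 0.06 (adjusted p = 0.00234) and -0.15 ± 0.06 (adjusted p = 0.0421). Of 3 further genes of complexes III and IV, UQCR10 and COX7C fell in KO1, with log2 changes of -0.23 and -0.13, the last -0.22 with the GC trend removed, and UQCR11 was not called. In KO2 none of the 3 passed edgeR's threshold, with adjusted p of 0.22, 0.172 and 0.092 and none with an unadjusted p under 0.05. With the GC trend removed COX7C did fall in KO2, at -0.12 (adjusted p = 0.0125). All KO2 libraries lay below WT for COX7C and UQCR11, and UQCR10 overlapped. Of 7 tissue-restricted isoforms 1 was tested, and it was called in neither clone.

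The nuclear genes of the ATP synthase, which pairs with MT-ATP6 and MT-ATP8, were 18 in number. In KO1 0 of them rose and 10 fell, and in KO2 5 rose and 4 fell, where the share of all tested genes was 24.7% each way. ATP5MC3, a gene of the rotating c-ring, averaged 159.7 ± 2.25 CPM in KO1 and 279 ± 10 CPM in KO2, against 205 ± 4.496 CPM in WT (SD, n = 3 each). It fell in KO1, with a log2 change of -0.36 ± 0.04 (adjusted p = 6.7e-06) and rose in KO2, with 0.45 ± 0.04 (adjusted p = 2.1e-07). ATP5IF1, the inhibitor of the enzyme's reverse reaction, fell in both clones, with a log2 change of -0.47 ± 0.06 (adjusted p = 3.57e-05) and -0.43 ± 0.06 (adjusted p = 4.3e-05). ATP5F1E, the epsilon subunit, fell in KO2, with a log2 change of -0.45 ± 0.04 (adjusted p = 9.54e-07), and was at -0.07 ± 0.04 (adjusted p = 0.257) in KO1. The median of the neighbours in KO2 was 0.59 for ATP5MC3, -0.43 for ATP5F1E and -0.04 for ATP5IF1.

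Of 46 assembly factor genes tested, 4 rose and 12 fell in KO1, beside 18.0 and 16.8% of all tested genes, and 6 rose and 17 fell in KO2, beside 24.7% each way. ECSIT, a complex I assembly factor, averaged 27.9 ± 3.21 CPM in KO1 and 18.4 ± 1.69 CPM in KO2, against 45.6 ± 5.04 CPM in WT, and fell, with a log2 change of -0.71 ± 0.10 (adjusted p = 0.000229) in KO1 and -1.31 ± 0.10 (adjusted p = 8.28e-07) in KO2, and the KO1 value was -0.45 with the GC trend removed. The neighbours of ECSIT had a median of -0.38 in KO1 and -0.65 in KO2. ECSIT is at chr19:11505916-11529174, on the chromosome that also holds FBXL12 and NDUFB7. BCS1L, which inserts the Rieske protein UQCRFS1 into complex III, fell in KO1, with a log2 change of -0.42 ± 0.05 (adjusted p = 1.71e-05) and rose in KO2, with 0.26 ± 0.05 (adjusted p = 0.00066), the directions UQCRFS1 took. The median of the neighbours in KO2 was 0.43 for BCS1L and 0.465 for UQCRFS1, both above the genes' own changes. In KO1 it was -0.13 and 0.04. The part of the neighbourhood was not tested. COA5, a complex IV assembly factor, fell in KO2, with a log2 change of -0.77 ± 0.06 (adjusted p = 4.28e-08) and rose in KO1, with 0.16 ± 0.06 (adjusted p = 0.0396), a call that did not pass with the GC trend removed (adjusted p = 0.157).

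Genes that act on mitochondrial DNA and RNA were read beside the mitochondrial transcripts. Of 15 genes of mitochondrial DNA transcription and replication, 0 rose and 4 fell in KO1, and 1 rose and 7 fell in KO2. POLG, the mitochondrial DNA polymerase, averaged 78.1 ± 7.49 CPM in KO1 and 55.02 ± 0.96 CPM in KO2, against 89.2 ± 4.55 CPM in WT, and fell in KO2, with a log2 change of -0.70 ± 0.06 (adjusted p = 2.87e-07) and in KO1, with -0.19 ± 0.06 (adjusted p = 0.0268), or -0.01 (adjusted p = 0.792) with the GC trend removed. TFB2M, which opens the mitochondrial promoters, fell in KO2, with a log2 change of -0.39 ± 0.07 (adjusted p = 0.000361). Of 24 genes of mitochondrial RNA processing, stability and translation, 1 rose and 8 fell in KO1, and 6 rose and 9 fell in KO2, the rises near the 24.7% of all tested genes. SLIRP, whose protein stabilises mitochondrial mRNAs, fell in both clones, with a log2 change of -0.62 ± 0.06 (adjusted p = 1.03e-06) in KO1 and -0.17 ± 0.06 (adjusted p = 0.0208) in KO2. FASTKD2, an RNA-binding protein of mitochondria, rose in KO2, by 0.35 ± 0.06 (adjusted p = 0.000156).

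Of 10 nuclear regulators of respiratory genes, 0 rose and 3 fell in KO1, and 3 rose and 3 fell in KO2, near the 24.7% each way of all tested genes. PPARGC1B, a coactivator, averaged 7.66 ± 0.0759 CPM in KO1 and 18.6 ± 1.07 CPM in KO2, against 12.8 ± 0.511 CPM in WT. It fell in KO1, with a log2 change of -0.75 ± 0.07 (adjusted p = 1.72e-06) and rose in KO2, with 0.53 ± 0.07 (adjusted p = 1.58e-05), on opposite sides of WT. PPARGC1A, its better known relative, was low, at 3.998 ± 0.0582 CPM in KO1 and 5.85 ± 0.49 CPM in KO2, against 3.58 ± 0.0744 CPM in WT, and rose in KO2 by 0.71 ± 0.10 (adjusted p = 2.5e-05). YY1 fell in both clones, with a log2 change of -0.15 ± 0.04 (adjusted p = 0.0142) and -0.14 ± 0.04 (adjusted p = 0.0143).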

How the data were processed

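The authors deposited 1 table of whole-number read counts per gene symbol for each of the 9 libraries. RNA with an integrity number of 10 was made into TruSeq libraries, per the labels' protocols. Reads were trimmed with Trim Galore and aligned with HISAT2, per the submitters' processing notes, which name hg38, GRCm38 and mm10 without a role. The counter, its annotation, its use of strand and its treatment of reads with several matches are not given in these sources, and they bear on overlapping genes and on nuclear copies of mitochondrial genes.

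The deposited counts of all 9 libraries were fitted with edgeR 4.0.16 (TMM scaling, filterByExpr, robust quasi-likelihood test, 1 mean per group) in R 4.3.3, and p-values were adjusted by Benjamini and Hochberg's method over 17759 tested genes. Group comparisons were KO1 minus WT, KO2 minus WT and KO1 minus KO2. Total counts were 52427841 to 97243363, so 3 counts equal 0.0309 to 0.0572 CPM, a limit that covers counting error only. Within groups libraries differed by 6.12 to 31.3 times the sampling noise (chi-square over its degrees of freedom), so none was counted as a repeat. Gene positions, exon lengths and GC content came from GENCODE 29, which held 55842 of the 61155 symbols.

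Members and lists were chosen with earlier results of these data known. Values in every library are given for the mitochondrial genes and, in each complex, for up to 3 called nuclear genes with the largest change in each clone, among genes with a mean log2 CPM of 2 or more, and of each pathway list up to 4 genes were eligible by name. The other genes named were chosen after their values were seen. Alternatives were upper quartile and DESeq2 scaling, DESeq2 1.42.0, limma-voom 3.58.1, other filters, removal of each library's GC trend (lowess, span 0.3), scaling without mitochondrial genes, the replicate number as a block, and each library left out. The code was tested on simulated data.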

Additional observations from a re-analysis of the deposited data

Results flagged for a closer look

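Results were picked out here because the clones' changes from WT differed by edgeR's test of KO1 minus KO2 (adjusted p under 0.05), which uses no WT library for the difference itself. Of the 13 mitochondrial genes, 8 met this, all with KO1 below KO2, where 24.9% of all tested genes were lower and 23.9% higher. In log2 units, the differences were -0.74 for MT-CYB (cytochrome b), -0.70 for MT-CO3, -0.57 for MT-ND3, -0.55 for MT-ATP6, -0.52 for MT-CO2, -0.44 for MT-CO1, -0.38 for MT-ND4L and -0.24 for MT-ND5. All 3 KO1 libraries lay below all 3 KO2 libraries for each of these except MT-ND5. With a library left out, the call was lost in 7 of 9 cases for MT-ND5 and for MT-ATP6, in 4 for MT-ND4L and in 1 for MT-CO2, and MT-ND5 was also lost with the GC trend removed (adjusted p = 0.0671).

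Nuclear genes given in full in every library met it in both directions. KO1 was above KO2 by 1.03 for NDUFB7, 0.97 for NDUFA1, 0.64 for COX5B, 0.44 for COX5A, 0.32 for SDHA and 0.31 for SDHD. KO1 was below KO2 for NDUFB3 (-0.75), NDUFA4 (-0.61), UQCRFS1 (-0.40), COX8A (-0.38), SDHB (-0.22) and NDUFB9 (-0.20). The calls for NDUFB7 and NDUFB9 were each lost in 3 of 9 cases with a library left out. Groups of 3 libraries were not searched for single outlying libraries.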

How the results depend on the processing

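No called direction turned under any of 18 alternatives, 9 of them settings and 9 single libraries left out. Over 96 gene-level values and these alternatives, 1620 kept their side of the threshold, 68 lost a call and 40 gained one. Removal of the GC trend moved the most among the settings, with 8 calls lost and 7 gained. The count of mitochondrial genes that fell in KO1, 0, was 1 without a filter on low counts and 0 to 2 with a library left out. The count of nuclear genes that rose in KO1, 1, was 0 under upper quartile scaling, limma-voom, GC removal and the replicate block, 2 without a filter, and 0 to 2 with a library left out. The 7 mitochondrial rises in KO2 were 5 to 8 over the settings and 4 to 8 with a library left out. Of KO1 minus KO2, the 8 lower mitochondrial genes were 4 to 10 with a library left out, and the 7 higher nuclear genes were 11 without a filter. The log2 ratio of mitochondrial to nuclear counts in KO2 minus WT, 0.41, was 0.51 from counts per kilobase. The causes were not tested. The 23 nuclear falls in KO1 were 19 to 24 over the settings and 18 to 25 with a library left out. Replicate numbers did not pair the libraries: same-numbered ones correlated at -0.53 to 0.48, and with the replicate block 19 nuclear genes fell in KO1 and 8 mitochondrial genes rose in KO2. Precision is limited by 3 libraries per group from 1 clone each, and at about 1 CPM for NDUFS7 and NDUFV2.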
